A study of Homo sapiens with 42 samples.

Results

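The 10 genes SPI1, CEBPA, CEBPB, CEBPD, CEBPE, GFI1, IRF8, KLF4, RUNX1 and EGR1, which encode transcription factors of the myeloid lineage, were followed across every group of a microarray series on HL-60 cells, an established human acute myeloid leukaemia line. They were 10 of the 18417 genes measured, and they were taken by name, each with its probe set of highest mean over the 42 arrays, which for all 10 was its only probe set. The arrays were of the Affymetrix Human Gene 1.0 ST type and formed 14 groups of 3, each given labelled cDNA made from total RNA. In the inhibitor experiment (18 arrays) cells were untreated, or were given 10 µM GSK343, an inhibitor of the histone methyltransferase EZH2, or 2.5 µM HKMTI-1-005, which inhibits EZH2 and also the related H3K9 methyltransferases EHMT2 and EHMT1. Each of these was measured without and with 0.1 µM all-trans retinoic acid (ATRA), for 3 days of treatment. In the knockdown experiment (24 arrays) the groups were WT cells, taken here as untransduced, Scr cells, whose shRNA targets no gene, and cells that carry 1 of the lentiviral hairpins shEZH2#1 and shEZH2#2, again without and with ATRA. Transduced cells were selected in puromycin and expanded, and selection of WT cells is not described. Comparisons with WT therefore also differ in transduction. EZH2 knockdown (EZH2 KD) below means the average of both hairpins. The study describes the 3 arrays of a group as biological triplicates, and the labels do not say how their cultures were separated.

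Myeloid cells are shaped by a small set of DNA-binding proteins. PU.1, encoded by SPI1, and the C/EBP proteins open and activate the genes of granulocytes and monocytes, RUNX1 acts upstream of both in stem and progenitor cells, and C/EBP epsilon is needed for the late, secondary-granule stage of neutrophils. IRF8 and KLF4 favour monocytes, GFI1 represses monocyte genes and favours neutrophils, and EGR1 is an immediate-early factor that has been linked to the monocyte and macrophage fate. ATRA acts through nuclear receptors and drives HL-60 cells towards granulocytes.

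Levels are log2 values, and levels of different genes were not set against each other because each rests on other probes. A gene was called where limma, fitted to all 42 arrays, gave an adjusted p no higher than 0.05, the change was 1.3-fold or more, and its mean lay in the top 40% of genes (7367 genes, lowest mean 6.88). KLF4, with a mean of 5.83, was below this limit, so that 9 of the 10 could be called. Of 8 genes that mark promyelocytic HL-60 cells 7 were measured, all 7 in the top 40%, and no measured marker of T, B, erythroid, megakaryocytic or epithelial cells was. EZH2 itself was at 10.26, 10.44 and 10.39 in the Scr arrays and lower in every array with a hairpin and no ATRA (8.98 to 9.56), a log2 fold change of -1.08 for EZH2 KD against Scr (standard error 0.13, adjusted p = 1.72e-05, limma). Group means of EZH2 without ATRA were 10.36 in Scr, 10.02 in WT, 9.28 with shEZH2#1 and 9.29 with shEZH2#2, so the fall from WT was smaller. Of the knockdown arrays 6 had a higher median over all probe sets (5.47 to 5.56) than the other 18 (5.31 to 5.44) and than the 18 of the inhibitor experiment (5.36 to 5.46). They are Scr arrays 1 and 2, Scr+ATRA array 3, WT+ATRA array 3, shEZH2#1 array 1 and shEZH2#2 array 2, and called results of members that rest on them are given below without them as well.

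The members differed in how far their levels moved across the series. Group means of IRF8 spanned 1.83 on the log2 scale and those of CEBPE 1.24, against a median span of 0.56 over the top 40% of genes. The span was 0.98 for EGR1, 0.89 for CEBPA, 0.86 for GFI1, 0.74 for KLF4, 0.70 for SPI1, 0.67 for CEBPB, 0.55 for RUNX1 and 0.40 for CEBPD, so that 8 of the 10 lay above that median. When the 14 groups were ordered by mean, the arrays of neighbouring groups overlapped for each of the 10 genes at every one of the 13 steps, so that only groups farther apart in the order separated. IRF8 was highest with HKMTI-1-005 (mean 11.06) and in untreated cells (10.88) and lowest with GSK343+ATRA (9.23) and ATRA (9.52). CEBPE ran the other way, from 8.52 with GSK343+ATRA and 8.50 with ATRA down to 7.50 in Scr and 7.27 with HKMTI-1-005. SPI1 was highest with ATRA (10.0) and lowest with GSK343 (9.30).

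**Figure D1:**
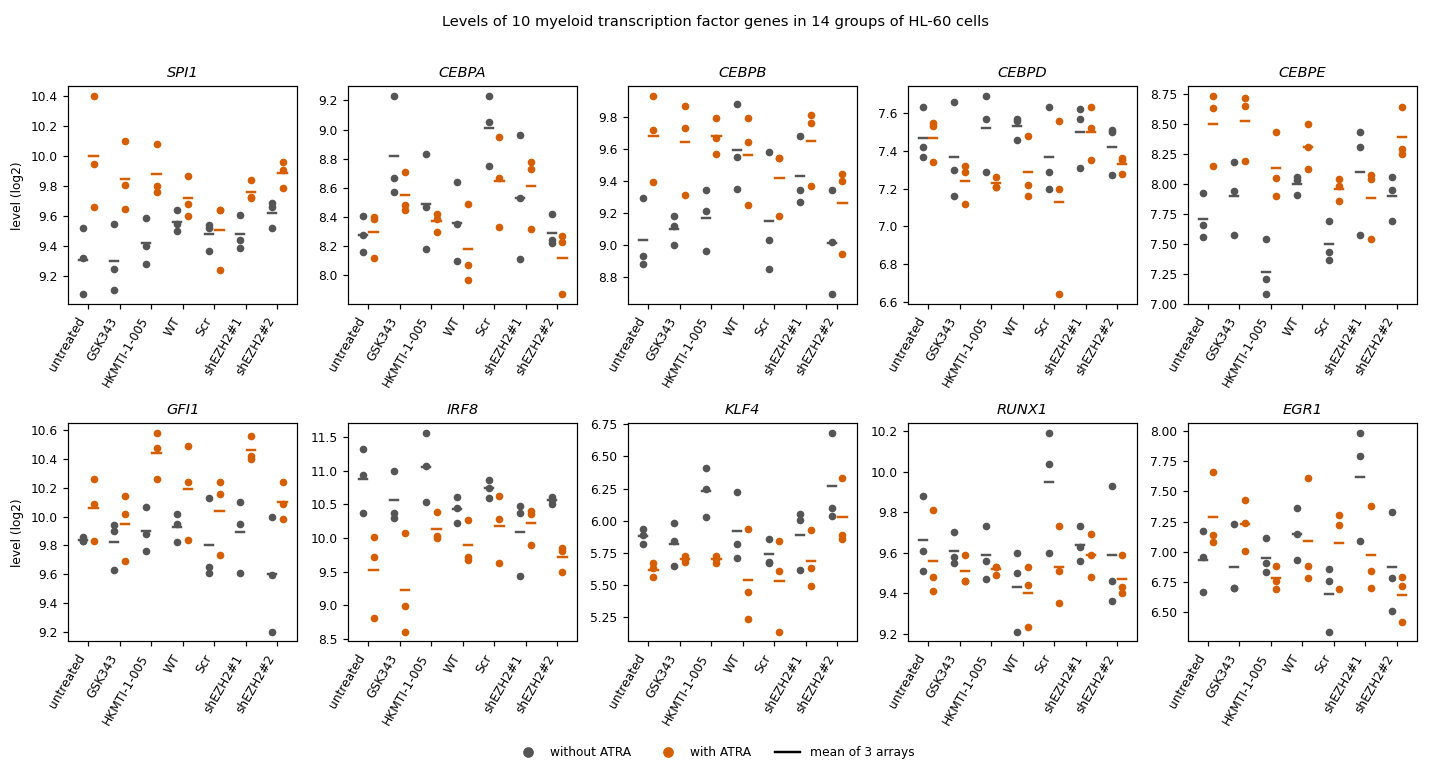
Level (log2, y axis) of each of the 10 genes on every array, with the 7 backgrounds on the x axis, cells without ATRA in grey and with ATRA in orange, and a bar at the mean of 3 arrays. In the first 3 backgrounds, those of the inhibitor experiment, the orange points of SPI1 and CEBPE lie above the grey ones and those of IRF8 below.

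Promoter windows of RefSeq (build GRCh38.p14, 250 bases before to 50 after a gene's start) were matched for 8 of the 10 genes, in 12 windows, since CEBPB and IRF8 have 2 each and GFI1 has 3. No window of SPI1 or CEBPD was used, and the counts below leave these genes out. Whether their promoters hold these letters was not tested. Sequences are shown for CEBPE and IRF8, whose levels moved most and in opposite directions, and for the GFI1 window that alone among the 12 holds the letters of a C/EBP site. Capitals mark the motif letters found on either strand. The CEBPE window (chr14:23119206-23119505, minus strand) holds GAGGAA, a core of PU.1 sites, and CACCC, a core of KLF sites, at 3 places, where it is read once as CACCC and at the other places as GGGTG on the opposite strand. The IRF8 window (chr16:85902580-85902879, plus strand) holds TGTGGT, a core of RUNX sites, and AGGTCA, the core read by retinoic acid receptors, which also lies in the second IRF8 window because both windows overlap there. The GFI1 window (chr1:92486050-92486349, minus strand) holds TTGCGCAA, which reads as TTGCNNAA on both strands, and TGTGGT.
CEBPE: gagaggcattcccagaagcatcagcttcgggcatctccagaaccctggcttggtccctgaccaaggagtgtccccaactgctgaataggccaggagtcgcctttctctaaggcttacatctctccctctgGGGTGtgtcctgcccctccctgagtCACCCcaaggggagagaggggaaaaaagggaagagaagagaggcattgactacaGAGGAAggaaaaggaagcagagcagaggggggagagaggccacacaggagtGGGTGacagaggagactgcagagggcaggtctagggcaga
IRF8: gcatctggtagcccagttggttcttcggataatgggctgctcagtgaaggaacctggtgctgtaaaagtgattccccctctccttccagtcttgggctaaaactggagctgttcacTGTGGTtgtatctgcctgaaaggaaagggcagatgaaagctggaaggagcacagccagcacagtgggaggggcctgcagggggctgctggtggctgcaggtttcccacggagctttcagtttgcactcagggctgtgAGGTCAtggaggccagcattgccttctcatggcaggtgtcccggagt
GFI1: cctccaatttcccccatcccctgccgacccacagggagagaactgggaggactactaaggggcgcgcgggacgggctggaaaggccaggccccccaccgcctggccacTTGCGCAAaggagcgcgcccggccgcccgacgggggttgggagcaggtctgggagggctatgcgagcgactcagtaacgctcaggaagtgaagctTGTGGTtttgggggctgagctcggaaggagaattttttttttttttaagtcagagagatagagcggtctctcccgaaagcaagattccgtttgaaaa

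These letters are short and common. Over all 35116 windows of the table, GAGGAA was found in 27.9%, CACCC in 59.9%, TGTGGT in 13.1%, AGGTCA in 13.8% and TTGCNNAA in 10.5%. Among the 12 matched windows GAGGAA was found in 4 (CEBPE, GFI1, KLF4 and RUNX1) and CACCC in 8. TGTGGT was in 2, AGGTCA in 3 and TTGCNNAA in 1. GCGNGGGCG, the EGR motif, was in 4 of the 12 (CEBPA, where 2 copies overlap, KLF4, RUNX1 and EGR1 itself) against 9.43% of all windows, TATAAA was in 2 (CEBPA and CEBPB) against 11.5%, AAATCA, the GFI1 core, was in 1 (KLF4) against 13.2%, and a joint ETS and IRF element was in none against 2.82%. The 12 matched windows held 55% to 80.7% G and C, against a median of 58.7% for the table. A match is a run of letters and not a measured binding site.

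The first question was how each factor responded to ATRA. In cells without an inhibitor 4 of the 10 genes were called, SPI1, CEBPB and CEBPE upwards and IRF8 downwards, where 13.1% of the 7367 genes were called. In bulk RNA, a change in the share of cells of a type and a change in RNA per cell cannot be told apart.

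SPI1 was at 9.32, 9.08 and 9.52 in the untreated arrays and at 10.4, 9.95 and 9.66 with ATRA. Every ATRA array was above every untreated array, by a log2 fold change of 0.69 (standard error 0.14, adjusted p = 0.00182, limma). CEBPB, which takes over from C/EBP alpha in induced granulopoiesis, was at 8.93, 8.88 and 9.29 without and at 9.93, 9.72 and 9.39 with ATRA. These groups were also apart, by 0.65 (standard error 0.20, adjusted p = 0.0367). CEBPE was at 7.66, 7.56 and 7.92 without and at 8.63, 8.73 and 8.15 with ATRA, with no overlap and a log2 fold change of 0.79 (standard error 0.20, adjusted p = 0.00942). IRF8 was at 10.94, 11.32 and 10.37 without and at 8.81, 9.72 and 10.02 with ATRA. All ATRA arrays of IRF8 were lower, and the log2 fold change was -1.36 (standard error 0.33, adjusted p = 0.00732), a 2.56-fold fall. For each of these genes array 3 of either group lay nearest the other group. Arrays of 5 members, KLF4 included, were apart in this comparison, and so were those of 42.3% of the genes that could be called. The SPI1 call was kept without any 1 array and was lost in a fit of only the compared groups (adjusted p = 0.0555). The CEBPB call was lost after centring on array medians (adjusted p = 0.0757), and it was lost without ATRA array 1 (adjusted p = 0.235) or 2 (0.109) or untreated array 1 (0.13) or 2 (0.171), the CEBPE call without ATRA array 1 (0.0666) or 2 (0.0684) or untreated array 2 (0.0635), and the IRF8 call without ATRA array 1 (0.117) or untreated array 2 (0.0738).

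With GSK343 present, SPI1 and IRF8 were called again, against 10.4% of genes. SPI1 was at 9.25, 9.11 and 9.55 with GSK343 and at 10.1, 9.81 and 9.65 with GSK343+ATRA, again without overlap (log2 fold change 0.55, standard error 0.14, adjusted p = 0.0159). IRF8 was at 10.3, 11.0 and 10.37 and then at 8.61, 8.99 and 10.08, all lower with ATRA (log2 fold change -1.33, standard error 0.33, adjusted p = 0.0101). CEBPE (0.62, adjusted p = 0.0559) and CEBPB (0.54, adjusted p = 0.105) had arrays apart, both higher with ATRA, and did not pass. Arrays of 4 of the 10 members were apart in this background and of 36.5% of the top 40% of genes. The SPI1 call was lost without GSK343 array 1 (adjusted p = 0.0624) or 2 (0.141) or GSK343+ATRA array 1 (0.165), and the IRF8 call without GSK343 array 2 (0.102) or GSK343+ATRA array 1 (0.129) or 2 (0.0682).

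With HKMTI-1-005 present only CEBPE was called, against 4.05% of genes. Its arrays were at 7.21, 7.08 and 7.54 with HKMTI-1-005, the group of lowest mean, and at 8.43, 7.90 and 8.05 with HKMTI-1-005+ATRA. The groups were apart by 0.85 (standard error 0.20, adjusted p = 0.00984), and the call was lost without HKMTI-1-005 array 1 (adjusted p = 0.0538) or 2 (0.0883) or HKMTI-1-005+ATRA array 1 (0.11). Arrays of 6 other genes were also apart here, 7 of 10 with CEBPE, where 27% of the top 40% of genes were apart: SPI1 (0.46, adjusted p = 0.0888), CEBPB (0.50, 0.236), GFI1 (0.53, 0.112), IRF8 (-0.92, 0.165), KLF4 (-0.53, 0.121) and CEBPD (-0.29, 0.497), none of which passed. Neither interaction of an inhibitor with ATRA was called for any member, and 0% of all genes were called for GSK343 x ATRA and 0% for HKMTI-1-005 x ATRA, where 0 and 0 of the 10 members had an unadjusted p below 0.05. Of the 7367 genes 16 and 272 did. The 95% intervals of these interactions were wide, from -0.51 to 1.39 for IRF8 and from -0.51 to 0.63 for CEBPE with HKMTI-1-005.

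Averaged over these 3 backgrounds, SPI1 (0.57, standard error 0.08, adjusted p = 5.16e-06), CEBPB (0.56, standard error 0.11, adjusted p = 0.000424), CEBPE (0.75, standard error 0.11, adjusted p = 8.45e-06) and IRF8 (-1.20, standard error 0.19, adjusted p = 1.54e-05) were called, against 16% of genes, and all 4 calls were kept without any 1 array. GFI1 (0.29, adjusted p = 0.0391) and KLF4 (-0.31, adjusted p = 0.0321) passed the p threshold and not the fold. CEBPA (-0.12), CEBPD (-0.14), RUNX1 (-0.09) and EGR1 (0.18) did not pass, with adjusted p from 0.32 to 0.537.

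**Figure D2:**
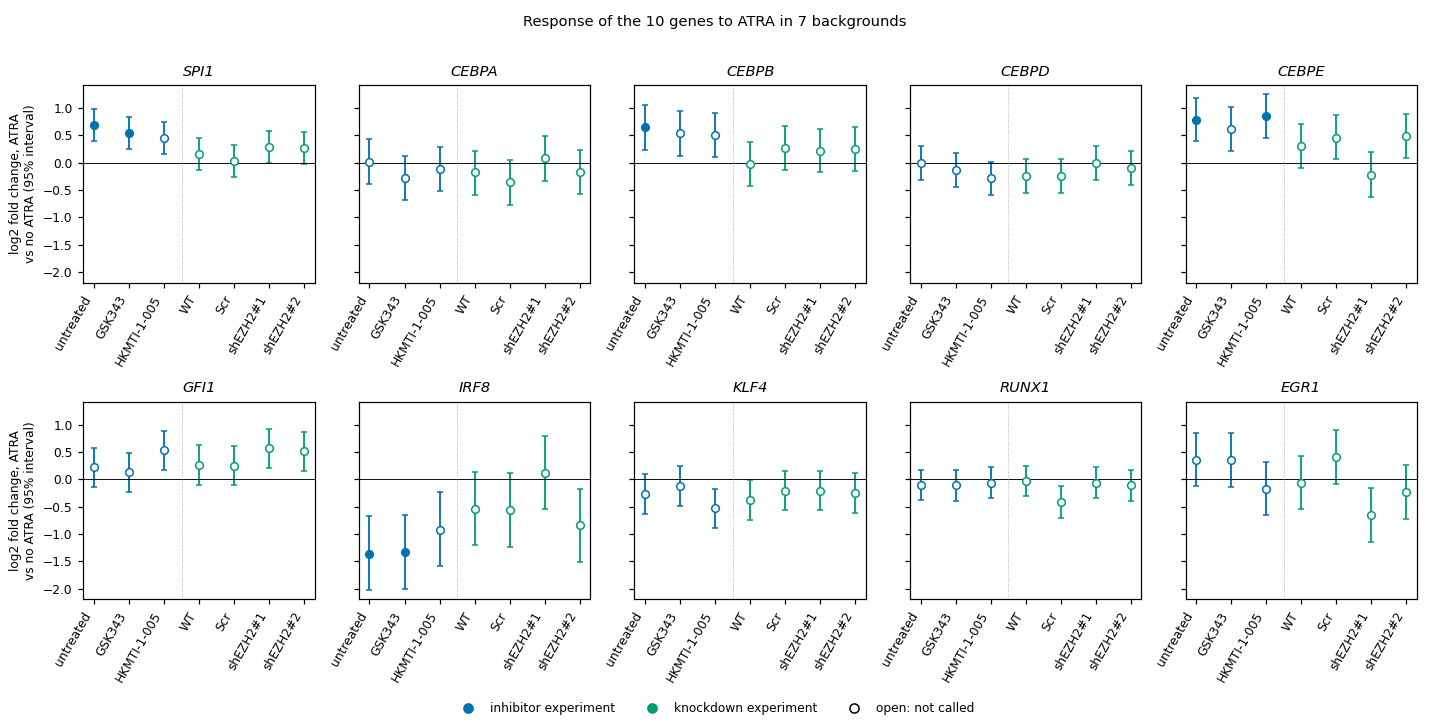
Log2 fold change of each of the 10 genes with ATRA against without (y axis, bars are 95% intervals from limma, 3 arrays per group) in the 7 backgrounds (x axis), blue for the inhibitor and green for the knockdown experiment, filled where the gene was called. Filled points lie only in the inhibitor experiment, for SPI1, CEBPB, CEBPE and IRF8, and the IRF8 points of the knockdown experiment lie between -0.84 and 0.12.

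In the knockdown experiment ATRA gave no call for any of the 10 genes in a single background, where 2.13% of genes were called in WT, 4.98% in Scr, 8.65% with shEZH2#1 and 8.36% with shEZH2#2. At an unadjusted p below 0.05 there were 1, 2, 2 and 3 of the 10 genes, and 1016, 1657, 1852 and 1752 of the 7367 genes. SPI1 was at 9.64, 9.55 and 9.50 in WT and at 9.68, 9.87 and 9.60 in WT+ATRA. These arrays overlapped, with a log2 fold change of 0.15 (standard error 0.14, adjusted p = 0.806), and so did those of Scr (0.03, adjusted p = 0.956). With shEZH2#1 (0.28, adjusted p = 0.346) and shEZH2#2 (0.26, adjusted p = 0.405) the SPI1 arrays were apart, all higher with ATRA, without passing. Arrays of 2 members were apart with shEZH2#1 and of 3 with shEZH2#2, against 29.1% and 23.4% of the genes that could be called. IRF8 was at 10.23, 10.61 and 10.45 in WT and at 9.68, 10.27 and 9.72 in WT+ATRA (-0.54, standard error 0.33, adjusted p = 0.64), and it was lower with ATRA in Scr (-0.56, adjusted p = 0.46) and with shEZH2#2 (-0.84, adjusted p = 0.165). With shEZH2#1, IRF8 was at 9.43, 10.37 and 10.48 without and at 9.89, 10.36 and 10.41 with ATRA, full overlap at a log2 fold change of 0.12 (95% interval -0.55 to 0.80). CEBPE also had its one lower value there, -0.22 (95% interval -0.62 to 0.19), against 0.31 in WT, 0.46 in Scr and 0.49 with shEZH2#2. Array 1 of shEZH2#1, with IRF8 at 9.43, is of high median, and no value without it is given.

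GFI1 was the single member called over the 4 knockdown backgrounds together. It was at 9.61, 9.95 and 10.1 with shEZH2#1 and at 10.42, 10.56 and 10.4 with shEZH2#1+ATRA, apart by 0.57 (standard error 0.18, adjusted p = 0.0514), and at 9.59, 9.20 and 10.0 with shEZH2#2 and at 10.24, 9.98 and 10.09 with shEZH2#2+ATRA, where the arrays overlapped. Its mean response over WT, Scr and both hairpins was 0.40 (standard error 0.09, adjusted p = 0.00141, 1.32-fold), against 10.2% of genes called. That fold lies just past the 1.3 limit. It fell below it, to 0.31 without the 6 arrays of high median, to 0.37 without Scr array 1, 0.38 without Scr array 2, 0.37 without Scr+ATRA array 2, 0.36 without WT+ATRA array 2, 0.36 without shEZH2#1 array 1 and 0.35 without shEZH2#2 array 2, with adjusted p of 0.00499 or less in each. With the array median as a covariate the GFI1 response was 0.35 (adjusted p = 1.87e-05, limma), also short of 1.3-fold.

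Over all 7 backgrounds CEBPE (0.47, standard error 0.07, adjusted p = 8.59e-06) and IRF8 (-0.77, standard error 0.12, adjusted p = 1.05e-05) were called, against 11.5% of genes, and both calls were kept without any 1 array. SPI1 (0.35, adjusted p = 7.39e-06), GFI1 (0.35, adjusted p = 0.000105) and CEBPB (0.34, adjusted p = 0.000616) had folds of 1.27, 1.28 and 1.27, short of 1.3, and KLF4 was lower by -0.28 (adjusted p = 0.00167), below the level limit as well. SPI1 and GFI1 were higher with ATRA in 7 of 7 backgrounds, and KLF4 and RUNX1 were lower in 7 of 7, against 29.1% of the top 40% of genes that moved one way in all 7. CEBPB and CEBPE were higher and IRF8 and CEBPD lower in 6 of 7, so that 4 members moved one way in all 7 and another 4 in 6, against 55.4% of the top 40% of genes in 6 or 7. The CEBPE arrays were apart in all 6 of those backgrounds, the SPI1 arrays in 5 of 7 and the IRF8 arrays in 4. Of the top 40% of genes 17.5% were apart one way in at least 4 backgrounds, 10% in at least 5 and 5.23% in at least 6. CEBPA (-0.15, adjusted p = 0.176), the factor that starts granulocyte commitment, CEBPD (-0.14, 0.0715), RUNX1 (-0.13, 0.0776) and EGR1 (0.00, 0.987) did not pass.

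Members without a called response varied in how their arrays fell. KLF4 was at 5.94, 5.82 and 5.89 in untreated cells and at 5.67, 5.56 and 5.63 with ATRA, and at 6.25, 6.03 and 6.41 with HKMTI-1-005 and 5.73, 5.67 and 5.70 with HKMTI-1-005+ATRA. Its arrays were apart in these backgrounds and overlapped in the other 5. RUNX1 was at 10.19, 10.04 and 9.60 in Scr and at 9.73, 9.35 and 9.51 in Scr+ATRA, which overlapped at its largest response (-0.42, adjusted p = 0.109). EGR1 was at 7.79, 7.98 and 7.09 with shEZH2#1 and at 7.38, 6.70 and 6.84 with ATRA added (-0.65, adjusted p = 0.129), also with overlap, and CEBPA, at 9.05, 9.23 and 8.75 in Scr, was at 8.67, 8.95 and 8.33 in Scr+ATRA (-0.36, adjusted p = 0.413). CEBPD, a member of the C/EBP family induced in acute responses, had the smallest span, with group means from 7.13 in Scr+ATRA, where 1 array was at 6.64, to 7.53 in WT.

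Whether the mean response differed between the experiments was tested as a contrast of its own, added after the values were seen. SPI1 differed by 0.38 (95% interval 0.16 to 0.61, adjusted p = 0.0613), CEBPE by 0.49 (0.18 to 0.80, adjusted p = 0.0851), IRF8 by -0.75 (-1.26 to -0.23, adjusted p = 0.127) and CEBPB by 0.39 (0.08 to 0.69, adjusted p = 0.211). None was called, against 2.4% of genes. At an unadjusted p below 0.05 there were 4 of the 10 members and 1408 of the 7367 genes. Of 210 differences between single backgrounds (10 genes, 21 pairs of backgrounds) 0 had an adjusted p of 0.05 or less and 18 an unadjusted p below 0.05. The pairs share arrays, so these are not separate tests. No share over all genes is given for them, and nothing is read from the 18. Against WT cells of the knockdown experiment alone, the response of untreated cells was not called for any member, nor for any gene (0% called, 2 of 10 members and 706 of the 7367 genes at an unadjusted p below 0.05). The 2 experiments and any batch between them cannot be told apart.

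IRF8 and CEBPE mirrored each other across the groups. Over the 14 group means Pearson's r between them was -0.94, as a description of groups that share the ATRA treatment. The group with the lowest CEBPE, HKMTI-1-005, had the highest IRF8, and the group with the highest CEBPE, GSK343+ATRA, had the lowest IRF8. The mean of shEZH2#1 without ATRA (CEBPE 8.10, IRF8 10.09) lay among the groups with ATRA. Its array 1, of high median, was at 8.43 for CEBPE and 9.43 for IRF8. Arrays 2 and 3 were at 8.31 and 7.57 for CEBPE and at 10.37 and 10.48 for IRF8, where the WT means were 8.00 and 10.43. SPI1 went with CEBPE (r = 0.75) and against IRF8 (r = -0.80), CEBPB with GFI1 (r = 0.73), and CEBPA with RUNX1 (r = 0.70). Scr was the highest group for both CEBPA (9.01) and RUNX1 (9.95). Its arrays 1 and 2 are of high median, and no r without that group is given.

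**Figure D3:**
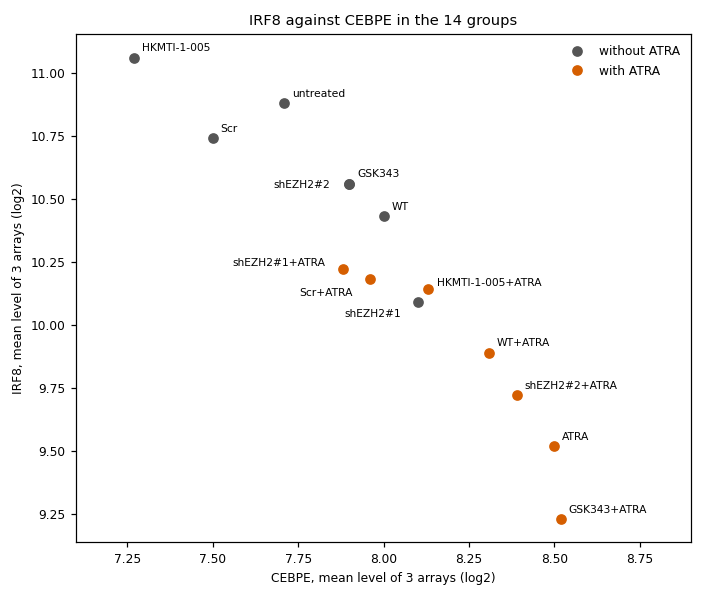
Mean level (log2, 3 arrays) of IRF8 (y axis) against CEBPE (x axis) in the 14 groups, grey without and orange with ATRA. The groups fall along a line from HKMTI-1-005 at the upper left (7.27, 11.06) to GSK343+ATRA at the lower right (8.52, 9.23).

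Outside the 10, the genes of the top 40% whose 14 group means were most like SPI1 were COTL1, an actin-binding protein (r = 0.97), LYN, a Src family kinase (0.96), and KCTD12 (0.95). Most like IRF8 were BMP8B (0.96), DCAF16 (0.94) and URB2 (0.94), and most like CEBPE were MEA1 (0.94), DYNLT3 (0.88) and NTN1 (0.87). For GFI1 they were WDR7 (0.94), SYNJ1 (0.91) and DECR1 (0.90), for CEBPB RCHY1 (0.92), ATP6V1C1 (0.91) and FERRY3 (0.90), and for CEBPD WWP1 (0.88), GRAMD1B (0.84) and MTM1 (0.84). For CEBPA they were NRGN (0.84), MYO5A (0.84) and FANCG (0.83), for RUNX1 CCZ1P-OR7E38P (0.90), SEPT5-GP1BB (0.89) and KMT2B (0.89), and for EGR1 ECE1 (0.87), RAP1B (0.84) and RNF6 (0.84). Over the 42 single arrays the likeness held at 0.90 for COTL1 with SPI1 and 0.92 for BMP8B with IRF8 and was weaker for others, such as 0.33 for WWP1 with CEBPD. By the ranks of the group means (Spearman's rho) the likeness to RUNX1 was weaker, at 0.64 for SEPT5-GP1BB and 0.67 for KMT2B.

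The second question was what the inhibitors did. None of the 10 genes was called for GSK343 against untreated cells (0.0136% of genes called, 1 member at an unadjusted p below 0.05), for HKMTI-1-005 against untreated cells (0.217%, 1 member), for GSK343+ATRA against ATRA (0.0136%, 0 members), for HKMTI-1-005+ATRA against ATRA (0.76%, 2 members), or for HKMTI-1-005 against GSK343 without ATRA (0.394%, 2 members) or with it (1.07%, 2 members), at different doses of the inhibitors. In the same order 232, 353, 150, 985, 515 and 918 of the 7367 genes had an unadjusted p below 0.05. The lowest adjusted p among the members over these comparisons was that of GFI1 (0.247).

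CEBPA was at 8.41, 8.28 and 8.16 in untreated cells, at 8.57, 8.67 and 9.23 with GSK343 and at 8.83, 8.47 and 8.18 with HKMTI-1-005. The GSK343 arrays were all above the untreated ones, by 0.54 (95% interval 0.13 to 0.94), with an unadjusted p of 0.0107 and an adjusted p of 1 (limma). CEBPE was lower with HKMTI-1-005 than untreated by -0.44 (95% interval -0.84 to -0.03, adjusted p = 0.893) and lower than with GSK343 by -0.63 (-1.03 to -0.22, adjusted p = 0.261), its arrays apart in both. With ATRA, EGR1 was lower with HKMTI-1-005 than without an inhibitor by -0.51 (-1 to -0.02, adjusted p = 0.419). There too, the HKMTI-1-005 group was above the GSK343 group by 0.49 for GFI1 (0.13 to 0.85, adjusted p = 0.247) and by 0.91 for IRF8 (0.24 to 1.58, adjusted p = 0.253). KLF4 was at 6.25, 6.03 and 6.41 with HKMTI-1-005 and at 5.98, 5.84 and 5.65 with GSK343 (0.41, adjusted p = 0.687). For SPI1 the intervals of the inhibitors against their controls reached at most 0.44 in size, and for RUNX1 at most 0.36, so that larger changes of these genes lay outside them.

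**Figure D4:**
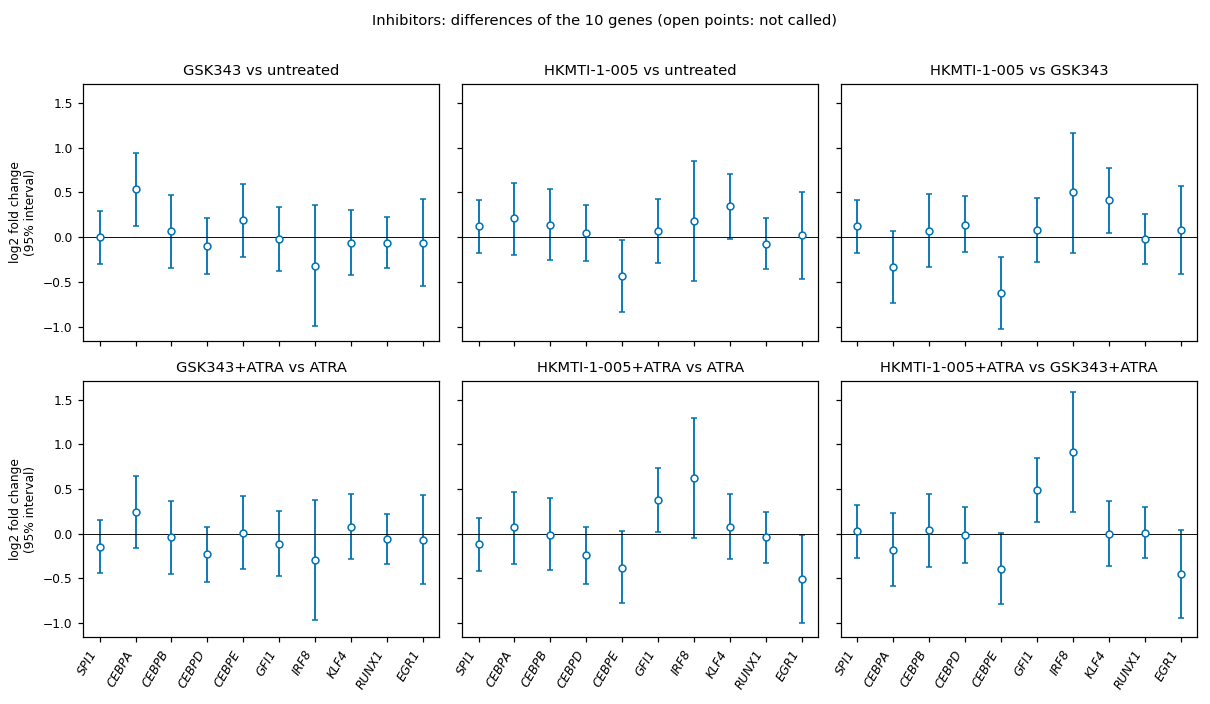
Log2 fold changes (y axis, bars are 95% intervals from limma, 3 arrays per group) of the 10 genes (x axis) in 6 comparisons of the inhibitor experiment. All points are open, none called, and the one farthest from 0 is IRF8 at 0.91 for HKMTI-1-005+ATRA against GSK343+ATRA.

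The third question was what loss of EZH2 did. CEBPA was the single member called for EZH2 KD against Scr, downwards, against 6.12% of genes. It was at 9.05, 9.23 and 8.75 in Scr, at 8.11, 8.53 and 8.96 with shEZH2#1 and at 8.24, 8.22 and 8.42 with shEZH2#2. All arrays of shEZH2#2 were below the Scr arrays and those of shEZH2#1 overlapped them, and the log2 fold change was -0.60 (standard error 0.17, adjusted p = 0.0438). Against WT cells, at 8.10, 8.64 and 8.35, the same knockdown arrays overlapped throughout and differed by 0.05 (95% interval -0.30 to 0.40). Against WT, 0 members were called for EZH2 KD (0.407% of genes, 1 member and 1205 of the 7367 genes at an unadjusted p below 0.05). Scr itself was above WT for CEBPA by 0.65 (standard error 0.20, adjusted p = 0.0304) with no overlap. Without the 6 arrays of high median, which leaves 1 Scr array assumed to vary like the other groups, the CEBPA difference from Scr was -0.21 (adjusted p = 0.961), and after centring on array medians it was -0.50 (adjusted p = 0.0943).

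RUNX1 was the other member called for Scr against WT, where 21.6% of genes were called and the median of all top genes was -0.20. It was at 10.19, 10.04 and 9.60 in Scr and at 9.21, 9.60 and 9.50 in WT, where the lowest Scr and the highest WT array both round to 9.60, with a log2 fold change of 0.51 (standard error 0.14, adjusted p = 0.016). Scr arrays 1 and 2, the higher ones for RUNX1 and CEBPA, are of high median, and without the 6 such arrays the values were 0.17 for RUNX1 and 0.39 for CEBPA (adjusted p = 0.999 for both). Centring each array on its median moved the median of all top genes to -0.36 and the values to 0.49 for CEBPA (adjusted p = 0.0827) and 0.36 for RUNX1 (adjusted p = 0.0289, under 1.3-fold). With ATRA, Scr and WT gave no call (0.991% of genes, 1 member and 832 of the 7367 genes at an unadjusted p below 0.05). For CEBPA the call of EZH2 KD against Scr was also lost without Scr array 1 (-0.57, adjusted p = 0.203) or 2 (-0.49, 0.362), shEZH2#1 array 1 (-0.49, 0.0858) or 2 (-0.59, 0.0688) or shEZH2#2 array 1 (-0.58, 0.0999) or 3 (-0.63, 0.0568). That of Scr against WT was lost without Scr array 1 (0.63, 0.139) or 2 (0.54, 0.199) or WT array 1 (0.52, 0.162) or 3 (0.64, 0.0635), and that of RUNX1 without Scr array 1 (0.39, 0.167) or 2 (0.47, 0.121) or WT array 1 (0.40, 0.117).

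EGR1 was called with 1 hairpin and not with the other. It was at 6.76, 6.34 and 6.86 in Scr, at 7.79, 7.98 and 7.09 with shEZH2#1 and at 6.51, 7.33 and 6.78 with shEZH2#2. All shEZH2#1 arrays were above Scr, by 0.97 (standard error 0.24, adjusted p = 0.0205), against 6.07% of genes called, and those of shEZH2#2 overlapped Scr (0.22, adjusted p = 0.716), against 2.46%, where 4 members had an unadjusted p below 0.05 and 0 were called. With shEZH2#2, 1852 of the 7367 genes had such an unadjusted p. The difference between the hairpins was 0.75 for EGR1 (95% interval 0.26 to 1.24, adjusted p = 0.211), and 0 members were called for shEZH2#1 against shEZH2#2 without ATRA (0.502% of genes, 3 members and 827 of the 7367 genes at an unadjusted p below 0.05) or with it (0.448%, 2 members and 460 genes). WT arrays of EGR1, at 7.15, 7.36 and 6.93, were above all Scr arrays and overlapped those of shEZH2#1. The shEZH2#1 call was lost without Scr array 1 (1.02, adjusted p = 0.0687) or 2 (0.81, 0.179) or shEZH2#1 array 1 (0.88, 0.0836) or 2 (0.79, 0.125), and without the 6 arrays of high median (0.67, 0.797).

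**Figure D5:**
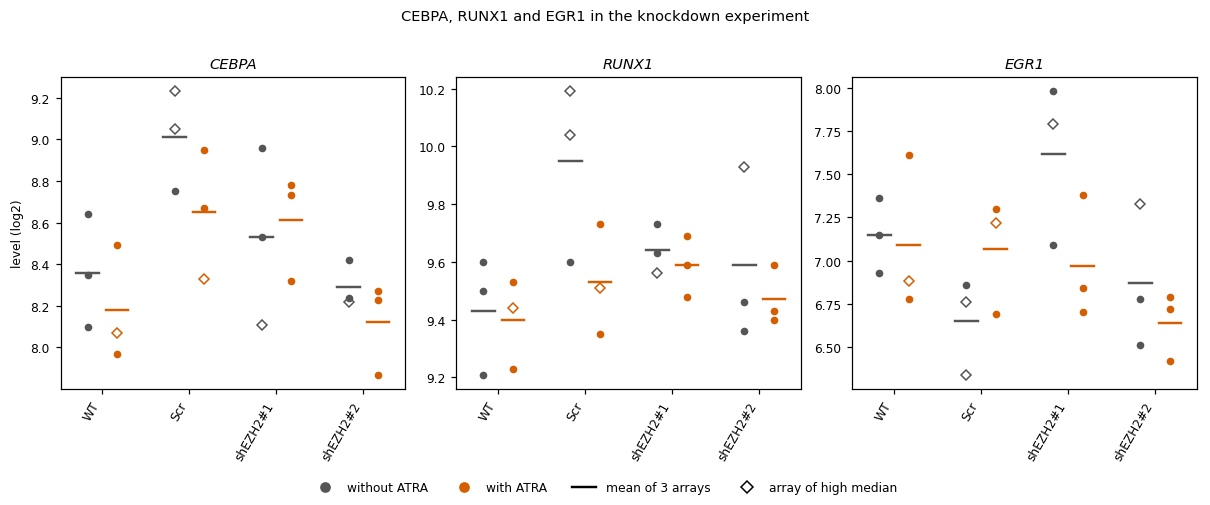
Level (log2, y axis) of CEBPA, RUNX1 and EGR1 on each array of the knockdown experiment (x axis, 4 backgrounds), grey without and orange with ATRA, with a bar at the mean of 3 arrays and open diamonds for the 6 arrays of high median. The Scr diamonds are the highest points for CEBPA (9.05 and 9.23) and RUNX1 (10.19 and 10.04).

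With ATRA the knockdown gave no call of any member, for EZH2 KD against Scr (5.38% of genes called, 3 members at an unadjusted p below 0.05), for shEZH2#1 (5.08%, 2 members) or shEZH2#2 (2.1%, 4 members) against Scr, or for EZH2 KD against WT (3.28%, 0 members). In the same order 1959, 1825, 1413 and 1405 of the 7367 genes had such an unadjusted p. SPI1 was at 9.64, 9.64 and 9.24 in Scr+ATRA, below every array of shEZH2#1+ATRA (9.72 to 9.84) and of shEZH2#2+ATRA (9.79 to 9.96), by 0.32 (standard error 0.13, adjusted p = 0.169). Against WT+ATRA that difference was 0.11 (95% interval -0.15 to 0.36). The 9.24 is of Scr+ATRA array 3, which is of high median, and no value without it is given. The interaction of EZH2 KD with ATRA was called for 0.0814% of genes and for no member. Its lowest p among the 10 was that of EGR1 (-0.85, 95% interval -1.45 to -0.25, unadjusted p = 0.00674, adjusted p = 0.406), the only member with an unadjusted p below 0.05. Of the 7367 genes 752 had one below 0.05.

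Other genes of the same networks were counted from lists written from general knowledge. Of 54 relatives and partners of the 10 factors 51 were measured and 25 were in the top 40%. Over the 7 backgrounds 5 of these 25 rose with ATRA and 1 fell, where 449 of the 7367 genes rose and 395 fell (11.5% in all). They were ID2, an inhibitor of basic helix-loop-helix factors (1.09, adjusted p = 1.22e-10), TRIB1, a pseudokinase that promotes degradation of C/EBP alpha (0.81, adjusted p = 3.63e-08), KLF10 (0.56), RUNX3 (0.44) and RUNX2 (0.43), and the AP-1 protein FOSL2, which fell (-0.56, adjusted p = 5.48e-08). The list's median was -0.02, as was that of all top genes. RUNX2 also rose with EZH2 KD against Scr (0.65, adjusted p = 0.045) and against WT (0.86, adjusted p = 0.0316), and JUNB rose against Scr (0.57, adjusted p = 0.00295) and was lower in Scr than in WT (-0.91, adjusted p = 3.52e-05). Of 42 genes known to be bound or controlled by these factors 39 were measured and 28 were in the top 40%, and over the 7 backgrounds 11 rose and 4 fell, against the same 11.5%, with a median of 0.30 against -0.02 for all top genes. BPI (2.15), CHI3L1 (1.98), CYBB, the catalytic subunit of the phagocyte oxidase (1.54), and ITGAM, which encodes CD11b (1.2), rose, and CST7 fell (-1.76). The means of RUNX3 (6.89) and ITGAM (6.98) lay close to the limit of 6.88. The arrays with ATRA, where both were higher, count in these means, so both may have reached the top 40% only through those arrays.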

How the data were processed

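RNA of 42 HL-60 samples was hybridised, 1 array each, to the Human Gene 1.0 ST type of Affymetrix. The authors processed the arrays by GC-RMA and removed batch and date effects in Partek Genomics Suite (versions not given in the sources used here), and they deposited 1 table of values for 33297 probe sets, read here as log2 from their size (3.18 to 14.5). How the array batches fell on the groups is not given in the sources used here, and a correction of that kind can change both means and spread. The number of arrays limits the precision.

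Of the probe sets 19460 had 1 symbol in the platform annotation, 1754 several and 12083 none. The probe set of highest mean was kept for each of 18417 genes. limma 3.58.1 in R 4.3.3 was fitted to all 42 arrays with 14 group means and 33 comparisons, with Benjamini-Hochberg adjustment over 18417 genes, tests being two-sided. The fit had 28 residual and 3.37 prior degrees of freedom. Calls needed an adjusted p of 0.05 and a fold of 1.3 with a mean in the top 40%, and it was tested on simulated data. Shares of genes with arrays apart were counted only for ATRA in the 7 backgrounds. The members, gene lists and tests were chosen with earlier results of these data known. Named genes were the 10 members, EZH2, the 3 genes most like each callable member over the group means, up to 5 list genes by size of the mean ATRA response, and called relatives where a comparison had 5 or fewer. RUNX2 in the mean over 7 backgrounds and JUNB in Scr against WT fell outside that rule and were chosen after their values were seen.

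Alternatives were quantile normalization, centring on array medians, fits of single experiments or of the compared groups, a replicate block, the methods' t-test and leaving out each array. Leaving out the 6 arrays of high median, an array-median covariate and 4 kinds of contrast, namely the difference between experiments, the 21 background pairs and both hairpin comparisons, were added after seeing the data. Replicate numbers were not used to pair the arrays in the main fit. Promoter windows came from a RefSeq table (GRCh38.p14). Protein sequences were not used here.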

Additional observations from a re-analysis of the deposited data

How the results depend on the processing

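Across the alternatives no direction of a called member reversed, and of 427 recomputed single-gene values 349 kept their call and 78 lost it. The 4 calls in the mean over the inhibitor experiment and the 2 in the mean over all 7 backgrounds were kept under every alternative run on them. The methods' t-test was not run on these mean responses. With 1 fit per experiment the number of members called fell to 0 for EZH2 KD against Scr, Scr against WT and shEZH2#1 against Scr, and was 2 for ATRA with HKMTI-1-005 and for the mean knockdown response. With only the compared groups it was 0 for the first 3 and for ATRA with GSK343, 2 for ATRA with HKMTI-1-005 and the mean knockdown response, and 1 for ATRA with shEZH2#2. SPI1 lost its call with ATRA against untreated in that setting (adjusted p = 0.0555) and its call with GSK343 in both (0.059 with 1 fit per experiment and 0.0761). Quantile normalization gave 2 for EZH2 KD against Scr, ATRA with HKMTI-1-005 and the mean knockdown response, and 1 for inhibitor minus knockdown, for ATRA with either hairpin and for shEZH2#2 against Scr. Centring gave 2 for EZH2 KD and for shEZH2#1 against Scr, although the CEBPA call for EZH2 KD was lost (adjusted p = 0.0943), as was that of CEBPB with ATRA (0.0757). The methods' t-test, after Benjamini-Hochberg adjustment, gave 0 for ATRA against untreated, ATRA with GSK343 and with HKMTI-1-005, EZH2 KD and shEZH2#1 against Scr, and Scr against WT. Of all genes it called 8, 0, 13, 0, 0 and 0 in these comparisons, in that order. With the replicate block, the mean knockdown response had 2 members and shEZH2#2 against Scr had 1, CEBPB with ATRA missed the threshold (adjusted p = 0.0512), and no other single-gene call of those tested changed. Same-numbered arrays of the knockdown experiment deviated together little (median r -0.04 to 0.03). In the inhibitor experiment the median r was 0.15, 0.1 and -0.18 for numbers 1, 2 and 3. Between these and arrays of other numbers it was -0.13, -0.13 and 0.14.

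Of the settings added after seeing the data, the array median as covariate gave 0 for EZH2 KD against Scr and for Scr against WT, 2 for ATRA with HKMTI-1-005, and 1 for ATRA in WT, in Scr and with either hairpin, for HKMTI-1-005+ATRA against GSK343+ATRA and for inhibitor minus knockdown. Without the 6 arrays of high median it was 0 for EZH2 KD and shEZH2#1 against Scr, Scr against WT and the mean knockdown response. Leaving out 1 array gave 1 to 4 members for ATRA against untreated, 0 to 4 for ATRA with GSK343, EZH2 KD against Scr and Scr against WT, 0 to 3 for shEZH2#1 against Scr and inhibitor minus knockdown, 0 to 2 for shEZH2#2 against Scr and ATRA with shEZH2#1, and 0 to 1 for ATRA with HKMTI-1-005, in Scr and with shEZH2#2, HKMTI-1-005+ATRA against GSK343+ATRA, EZH2 KD+ATRA and shEZH2#1+ATRA against Scr+ATRA and the mean knockdown response. Members were added to EZH2 KD against Scr without Scr array 3 (4), shEZH2#1 array 3 (3) or shEZH2#2 array 2 (2), to ATRA with GSK343 without GSK343+ATRA array 3 (4), and to inhibitor minus knockdown without GSK343+ATRA array 3 (3). The causes were not tested. Precision was limited by 3 arrays per group, so that, for IRF8 with GSK343 against untreated, the 95% interval ran from -0.99 to 0.36.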

Other observations

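Relatives and partners of the 10 factors that were called in single comparisons are given with their log2 fold changes, and no difference between comparisons is read from which genes passed. ID2 rose with ATRA in untreated cells (1.22), with GSK343 (1.21), in Scr (0.91) and with shEZH2#1 (1.25) and shEZH2#2 (1.53), and TRIB1 rose in untreated cells and with HKMTI-1-005 (1.08 in both). KLF10 rose with ATRA in untreated cells (0.77) and with GSK343 (0.88), RUNX2 in untreated cells (0.75), RUNX3 in untreated cells (0.51) and with GSK343 (0.65), HKMTI-1-005 (0.63) and shEZH2#1 (0.60), and ELF4 with HKMTI-1-005 (0.61). KDM1A, which encodes the demethylase LSD1 that works with GFI1, fell with ATRA in untreated cells (-0.60) and with GSK343 (-0.69). FOSL2 fell with ATRA in WT (-0.78), Scr (-0.97), shEZH2#1 (-0.75) and shEZH2#2 (-0.67), and its response differed between the experiments by 0.54 (adjusted p = 0.0307, limma). BATF3 fell with ATRA with shEZH2#1 (-0.68) and shEZH2#2 (-0.70), and CEBPG (-0.65), DDIT3 (-1.04) and JUNB (-0.47) fell with ATRA with shEZH2#1.

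With ATRA present, EZH2 KD against Scr gave higher ID2 (0.99) and RUNX2 (0.75) and lower BATF3 (-0.59) and CEBPZ (-0.40), and EZH2 KD against WT gave higher ID2 (1.45) and lower DDIT3 (-0.81), ETS1 (-1.01) and JUNB (-0.40), while JUNB was also lower in Scr+ATRA than in WT+ATRA (-0.65). For shEZH2#1 against Scr, JUNB (0.73) and RUNX2 (0.87) rose without ATRA, and ID2 (1.06) and RUNX2 (0.99) rose and BATF3 (-0.63) fell with it, and for shEZH2#2+ATRA against Scr+ATRA CEBPZ fell (-0.45). HKMTI-1-005+ATRA had higher ZEB2 (0.50) and lower BATF3 (-0.70) than GSK343+ATRA.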
